A study of Mus musculus with 100 samples.

Results

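The genes described here are 9 members of 3 families of calcium- or sugar-binding proteins: the annexins Anxa1, Anxa2, Anxa3 and Anxa5, the S100 proteins S100a6, S100a10 and S100a11, and the galectins Lgals1 and Lgals3. They are 9 of 24206 named genes in the deposited tables and were found by symbol, with 1 transcript standing for each gene, the one most abundant on average in the whole series. The genes were picked with their knockdown-against-control values known, so those values are given as a description: a call against control (limma, threshold below) only sorts values by size and spread, is no test of these genes, and supports nothing here. All 9 passed the filter on low values. The other 32 symbols that start with Anxa, S100 or Lgals serve as a comparison.

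Messenger RNA was sequenced from V6.5 cells, a hybrid mouse embryonic stem (ES) cell line grown on feeder fibroblasts and depleted of them before transfection, in 100 libraries of 50 groups with 2 libraries each. Every group, controls included, received 1.8 µg of short hairpin RNA (shRNA) plasmid, then puromycin from 24 h after transfection, for 72 h of selection. The design aimed to find the subunits of TFIID and Mediator that matter most for transcription; TFIID recognises core promoters, and Mediator passes signals from transcription factors to RNA polymerase II. Set A holds hairpins against 15 TFIID subunits and against Med15, Med16, Med23, Med24 and Med25 of the lower Mediator tail, with the shControl pair control_A; set B holds hairpins against 23 other Mediator subunits and the SAGA subunits Gcn5 and Usp22, with control_B; and set C holds hairpins against Med1 and Med14, with control_C. The labels name no separate culture or hairpin for either library of a group, so every test measures only the spread between these libraries.

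Annexins bind acidic phospholipids when calcium rises and act in membrane repair, vesicle traffic and links between membrane and actin. S100 proteins are small EF-hand proteins that mostly act by binding partners: S100a10 pairs with Anxa2, S100a11 with Anxa1, and S100a6 with several annexins and the calcyclin-binding protein Cacybp. Galectins bind beta-galactosides on cell-surface and matrix glycoproteins. All of these families are prominent in epithelial, mesenchymal and other differentiated cells.

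The promoter windows of 6 members were at hand in the RefSeq table for GRCm38.p6. The bases before the start of Anxa1 (chr19:20390672-20390921, minus strand), Anxa2 (chr9:69453433-69453682, plus strand) and S100a11 (chr3:93520246-93520495, plus strand) are shown. These genes were high in the same knockdowns below, and their motifs are shared only in part. Whether the motifs bear on those levels was not tested. Capitals mark matches, on either strand, to TATAAA (the TATA box), TGANTCA (the AP-1 site), GGAATG (the TEAD site, CATTCC on the other strand) and GGGCGG (the Sp1 GC box).
Anxa1: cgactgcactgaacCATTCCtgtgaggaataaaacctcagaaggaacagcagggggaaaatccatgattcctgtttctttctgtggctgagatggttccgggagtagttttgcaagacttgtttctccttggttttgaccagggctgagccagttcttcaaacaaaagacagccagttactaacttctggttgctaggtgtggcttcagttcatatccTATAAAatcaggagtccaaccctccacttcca
Anxa2: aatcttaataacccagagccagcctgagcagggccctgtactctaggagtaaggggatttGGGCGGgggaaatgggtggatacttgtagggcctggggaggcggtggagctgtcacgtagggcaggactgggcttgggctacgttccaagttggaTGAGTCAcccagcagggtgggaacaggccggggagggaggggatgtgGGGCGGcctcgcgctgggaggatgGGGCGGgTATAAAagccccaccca
S100a11: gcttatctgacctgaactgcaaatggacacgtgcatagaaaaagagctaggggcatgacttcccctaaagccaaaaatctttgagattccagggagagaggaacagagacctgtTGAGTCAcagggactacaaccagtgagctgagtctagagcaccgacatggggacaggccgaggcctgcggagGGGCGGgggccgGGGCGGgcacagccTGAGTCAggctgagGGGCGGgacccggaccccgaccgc
In windows from 250 bases before to 50 bases after the start, a TATAAA match stood 32 bases before the start of Anxa1 and 17 bases before that of Anxa2, and 13.6% of all 32851 windows hold one. TGANTCA matched in Anxa2, 95 bases before the start, and in S100a11, 136 and 38 bases before the start, against 7.81% of all windows. GGGCGG matched 3 times in Anxa2, 3 times in S100a11 and 2 times in Lgals3, against 35.7% of windows, and GGAATG matched only in Anxa1, against 14.7%. The windows of Anxa5 and S100a6 held none of the 4 motifs. These matches are letters in a window and were not tested as binding sites.

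Target levels matched the labels in set B but not throughout sets A and C. In set B the targeted messenger RNA stood at 14.2 to 68.9% of its control mean in the 50 knockdown libraries. In set A the replicate 2 libraries held 15.9 to 59.0% of the target but the replicate 1 libraries 56.9 to 173.0% (median 102.5%). The main results therefore use only the replicate 2 libraries there, as 1 library for each label. In set C both libraries labelled shMed14 and both labelled shMed1 disagreed with each other, as described below. Depth, recovered from the values, was 17.25 to 39.32 M reads per library, and a member had between 68 (Lgals3) and 7074 (Anxa2) reads in a library.

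In control ES cells the 9 genes were expressed at very different levels, and the order depended on the set. In the 2 control_B libraries, RPKM (read number divided by transcript length and library size, a scale on which genes can be compared) was 54.0 and 56.3 for Lgals1, 50.2 and 51.8 for S100a10, 33.5 and 34.4 for S100a11, 24.1 and 22.3 for Anxa2, 20 and 23.2 for S100a6, and 16 and 16.7 for Anxa3. Anxa5 stood at 8.07 and 7.88, Anxa1 at 6.45 and 7.23 and Lgals3 at 3.53 and 3.47 RPKM. Neighbours in this order overlapped in their libraries for Anxa2 and S100a6 and for no other pair. All 9 were higher in control_A than in control_B, from 1.37-fold for Lgals1 to 3.72-fold for Anxa2 (86.4 and 86.5 RPKM). Anxa2 was also high in control_C, at 68.2 and 61.6 RPKM, where Anxa1 (4.13 and 2.90) and S100a6 (10.4 and 9.68) were at their lowest among the controls. The controls of different sets were not compared by a test, because set and control cannot be told apart, and each knockdown is therefore read only against its own control pair.

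Across set B the members stood above control in most knockdowns, and by much more in some than in others. Of 225 member-by-knockdown comparisons, 165 were called higher and 2 lower at an adjusted p under 0.05 (limma), while 15.7% of all gene comparisons were called higher and 15% lower. In a fit of all 100 libraries the number called higher was 59, beside 4.44% of all gene comparisons, and in a fit of 80 libraries without the replicate 1 knockdown libraries of set A it was 92, beside 10%; both take their spread partly from the sets whose labels disagree with the targets. A rise of at least 1 log2 unit was called in 55 comparisons and a fall of that size in 0, against 0.58% and 0.322% of all gene comparisons. Both knockdown libraries lay above both controls in 190 comparisons, against 31% over all genes. By gene, 7 members were called higher in at least 13 of the 25 knockdowns and 4 in at least 20, against 8.26% and 1.9% of all genes. Those counts depend on the fit: with all 100 libraries 0 members reached 13 knockdowns, the most being 9 for Anxa3, and with 80 libraries 3 did, led by Anxa2 with 14, against 0.116% and 2.44% of all genes. The median log2 fold change was 0.51 for the members and -0.002 for all genes tested. Because the members were picked on this contrast, nothing is read from these counts beyond the description. A change in the number of cells of a type and a change in RNA per cell cannot be told apart in bulk RNA.

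**Figure D1:**
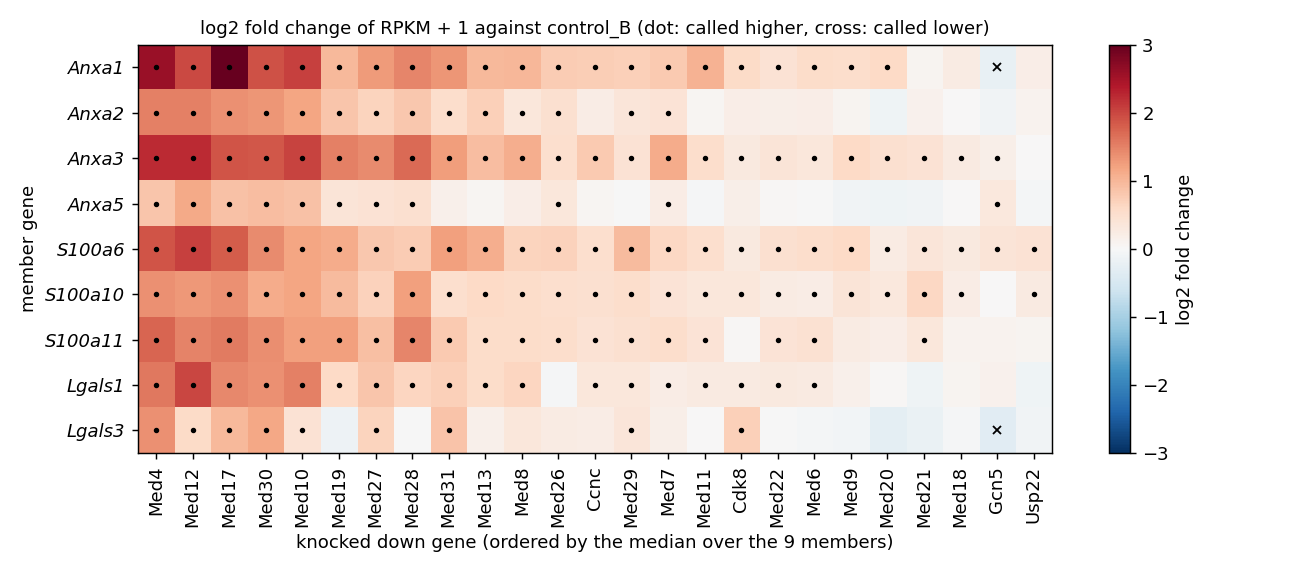
Log2 fold change of RPKM + 1 against control_B for the 9 members (rows) in the 25 knockdowns of set B (columns, ordered by the median over members); colour gives the change, a dot a call higher and a cross a call lower. The 5 columns at the left, Med4 to Med10, hold 9 calls higher each, and the crosses are Anxa1 and Lgals3 in the Gcn5 knockdown.

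The knockdowns fell on a gradient by the median over the members, which the number called followed only in part. The median over the 9 members was 1.58 log2 units with shMed4 (a middle-module subunit), 1.52 with shMed12 (the kinase-module subunit that activates CDK8), 1.43 with shMed17 (the head scaffold), 1.37 with shMed30 (upper tail) and 1.19 with shMed10 (middle). Each of these had all 9 members called higher, and the share of all genes called higher was 29.3%, 26.9%, 23.1%, 32.7% and 31.2% in the same order. shMed27 also had 9 called, at a median of 0.80, beside 20.5% of all genes. shMed19, shMed28 and shMed31 had 8 each, at medians of 0.95, 0.80 and 0.78, beside 22.6%, 31.7% and 17.3% of all genes. shMed29 and shMed7 also had 8 called but at medians of 0.44 and 0.42, beside 8.76% and 19.8%. At the other end, shMed18 had 3 called at a median of 0.11 and shUsp22 had 2 at 0.08, beside 3.75% and 2.34%. Med18 was the target least lowered in set B, at 60.5 and 68.9% of control, while Usp22 stood at 38.1 and 41.0%. A low count with shMed18 thus comes with much target left. shGcn5, which lowers the acetyltransferase of SAGA, had 3 called higher and 2 lower at a median of 0.10, although 20.1% of all genes were called higher and 12.4% lower. The median over all genes stayed between -0.027 and 0.041 in every knockdown of set B. Over the 25 knockdowns, which share control_B, the percent of target left and the member median had a Pearson's r of -0.48, so members tended to be higher where less target was left, with exceptions: the target was at 21.4% of control with shMed4 and at 14.3% with shCcnc, whose member median was 0.44.

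**Figure D2:**
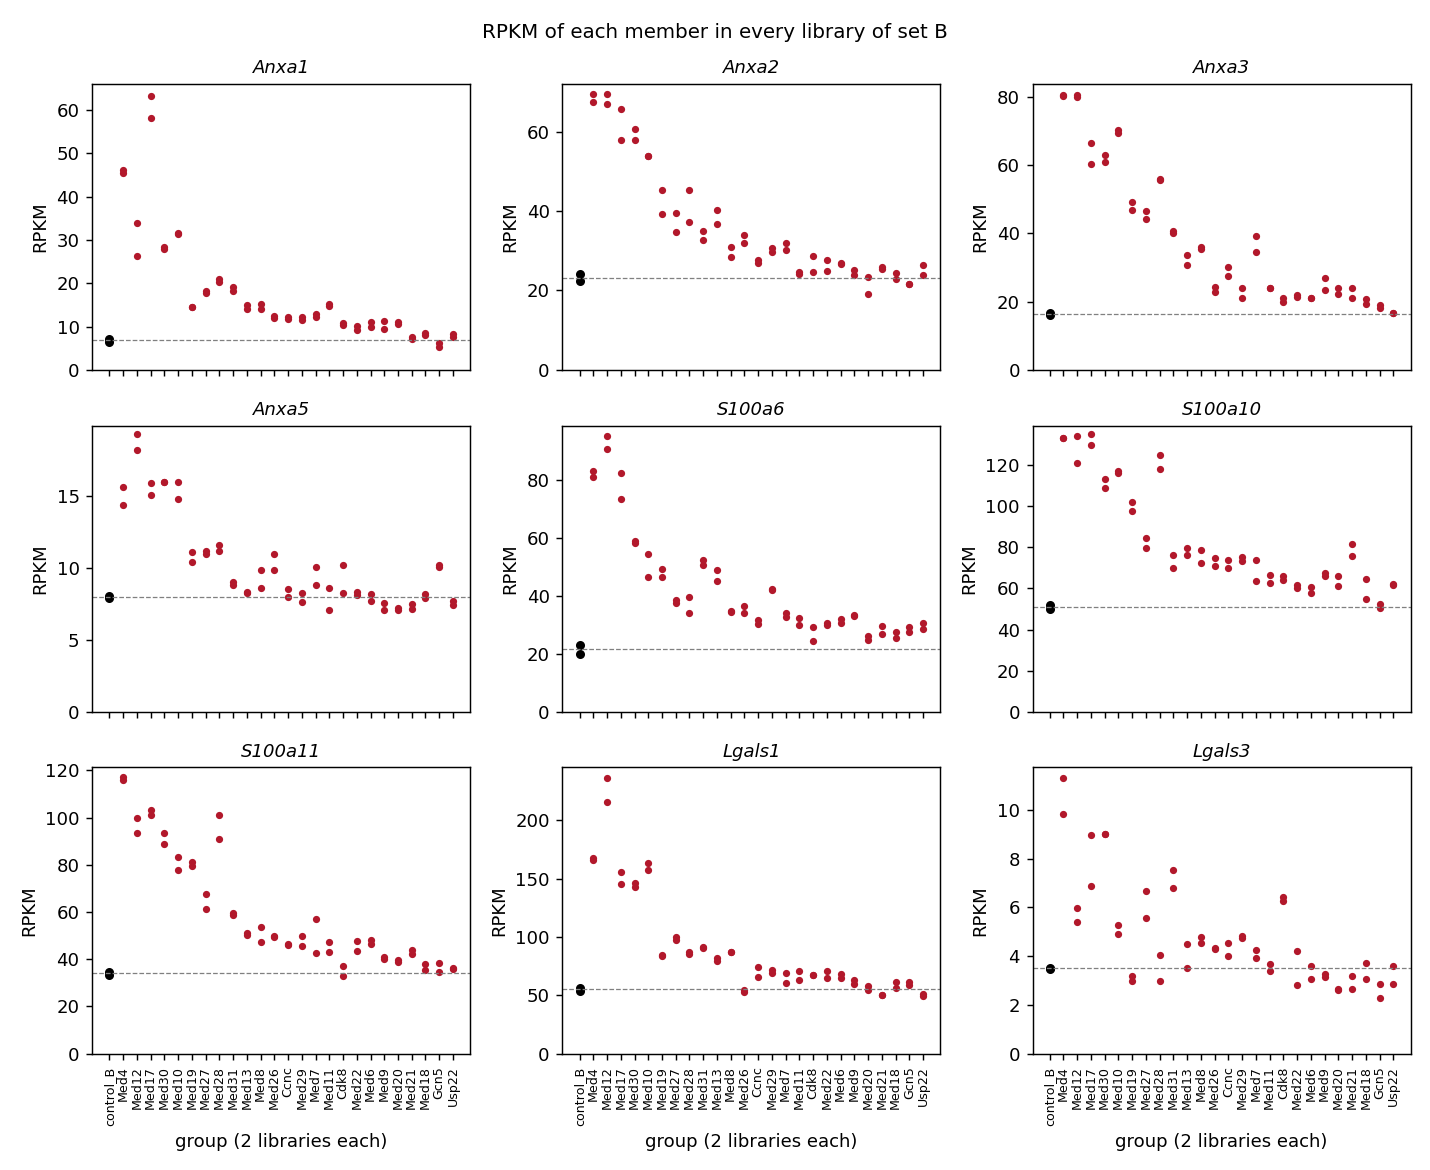
RPKM of each member in all 52 libraries of set B, with control_B in black (dashed line: its mean) and the knockdowns in red, ordered as in the plot of fold changes. The pairs of points lie close together, and most panels fall from left to right, with separate peaks of Lgals3 for shMed31 and shCdk8.

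Among the annexins, Anxa1 and Anxa3 had the widest range. Anxa1, which binds phospholipids and formyl peptide receptors and is known for dampening inflammation, read 63.2 and 58.2 RPKM with shMed17, 45.5 and 46.1 with shMed4, 31.5 and 31.3 with shMed10, 28.3 and 27.9 with shMed30 and 26.2 and 33.8 with shMed12. All of these lay above the controls at 6.45 and 7.23, and the shMed17 pair lay above every other library of the set. The log2 fold change was 2.98 ± 0.08 (SE from the fit) with shMed17 and -0.22 ± 0.08 with shGcn5, whose libraries read 6.24 and 5.28 RPKM. Anxa1 was called higher in 21 of 25 knockdowns, by at least 1 log2 unit in 10. Anxa3, a less studied annexin of epithelia and myeloid cells, read 80.6 and 80 RPKM with shMed12, 80.5 and 80.1 with shMed4 and 69.5 and 70.3 with shMed10, all far above its controls at 16 and 16.7. It was called higher in 24 knockdowns, 11 of them by at least 1 log2 unit, with a largest change of 2.23 ± 0.06, and shUsp22 was the exception at 16.6 RPKM in both libraries.

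Anxa2 and Anxa5 moved less. Anxa2, the partner of S100a10 at the cell surface and on endosomes, read 67.5 and 69.5 RPKM with shMed4, 69.6 and 67.1 with shMed12 and 65.8 and 57.9 with shMed17, against 24.1 and 22.3 in the controls. Its knockdown means ran from 21.2 to 68.5 RPKM with a median of 30.1, and 14 of 25 were called higher. The highest log2 fold change was 1.52 ± 0.09. Anxa5, which binds exposed phosphatidylserine and is widely used as a stain for dying cells, was highest with shMed12 at 19.3 and 18.2 RPKM, followed by shMed30 at 16 in both libraries. It was called higher in 11 knockdowns and passed 1 log2 unit only with shMed12 (1.14 ± 0.07). With shMed4 it read 14.4 and 15.6 RPKM (0.83 ± 0.07), so Anxa5 was the member that changed least with shMed4.

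The S100 genes stood above control in nearly all knockdowns. S100a6 (calcyclin) lay above both controls in all 25 knockdowns and was called higher in all 25, but in 7 with all 100 libraries in the fit and in 13 with 80. It read 90.9 and 95.1 RPKM with shMed12, 83.3 and 81.2 with shMed4 and 82.3 and 73.4 with shMed17, against 20 and 23.2 in the controls, and at its lowest, with shMed20, the log2 fold change was 0.24. S100a10 (p11), the S100 protein that has lost calcium binding and holds Anxa2 at membranes, was called in 24 knockdowns. It read 133 RPKM in both shMed4 libraries and 135 and 130 with shMed17, against 50.2 and 51.8, and its largest change was 1.37 ± 0.06. S100a11 (calgizzarin), the partner of Anxa1, was called in 19 knockdowns and read 117 and 116 RPKM with shMed4, 103 and 101 with shMed17 and 91.1 and 101 with shMed28, against 33.5 and 34.4. Its log2 fold change was 1.75 ± 0.08 with shMed4 and 0.03 ± 0.08 with shCdk8, where it read 32.7 and 37.0 RPKM and overlapped the controls.

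The galectins differed from each other. Lgals1, a secreted galectin that crosslinks glycoproteins, read 216 and 236 RPKM with shMed12, 166 and 168 with shMed4, 157 and 163 with shMed10 and 156 and 145 with shMed17, against 54.0 and 56.3 in the controls. The shMed12 pair lay above every other library of set B, and its log2 fold change was 2.01 ± 0.06. Lgals1 was called higher in 18 knockdowns. Lgals3, the galectin with a collagen-like tail that is drawn to damaged endosomes, was the least often called, in 9 knockdowns, and was the scarcest of the 9, with a median of 166 reads in a library. It read 11.3 and 9.84 RPKM with shMed4, 9 and 9.02 with shMed30, 8.98 and 6.89 with shMed17 and 7.55 and 6.82 with shMed31, against 3.53 and 3.47. It was called lower with shGcn5, at 2.27 and 2.86 RPKM (-0.34 ± 0.13), and this call and the one for Anxa1 were lost without control_B replicate 2, which left 0 calls lower.

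Members kept their own order within the leading knockdowns. Lgals1 was 0.43 ± 0.06 log2 units higher with shMed12 than with shMed4, whereas Anxa1 was 0.61 ± 0.08 lower and Lgals3 0.79 ± 0.13 lower. Anxa2 (68.4 and 68.5 RPKM on average) and Anxa3 (80.3 and 80.3) were level between these knockdowns, and S100a10 differed by -0.06 ± 0.06. Anxa1 was 1.00 ± 0.08 log2 units lower with shMed12 than with shMed17. Within the kinase module, the members other than Lgals3 were 0.96 to 1.93 log2 units higher with shMed12 than with shCdk8, the kinase itself. Lgals3 went the other way, at 5.39 and 5.99 RPKM with shMed12 and 6.28 and 6.42 with shCdk8, a difference of -0.14 ± 0.13. These pairs were chosen after their values were seen, so they are given without a test.

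Across the 25 knockdowns of set B, the levels of the 9 genes moved together. Over the 36 pairs of members, Pearson's r of mean log2(RPKM + 1) had a median of 0.88, with 0.95 for Anxa3 and S100a11 at the top and 0.62 for S100a10 and Lgals3 at the bottom. The annexin and S100 partners stood at 0.94 for Anxa2 with S100a10 and 0.90 for Anxa1 with S100a11. Of the 35 other pairs, 4 stood at or above the first (at 2 decimals) and 15 at or above the second. The points share their depth, their culture and the members' selection, so the values describe these libraries. In the 20 replicate 2 libraries of set A the median over the 36 pairs was 0.84, from 0.45 for Lgals1 with Anxa5 to 0.96 for Anxa2 with Anxa5. Outside the members and the targets, the genes most like the mean of the 9 among 11443 searched were Slc25a24 (r = 0.968), a mitochondrial carrier regulated by calcium, Tagln2 (0.967), an actin-binding protein, Phldb2 (0.959), Gsn (0.959), which encodes the actin-severing protein gelsolin, and Krt19 (0.958), a simple-epithelial keratin. Tagln2 read 64.5 RPKM on average in control_B and 177 with shMed4, and Krt19 read 5.55 and 31.5. Krt18 (0.942) was among the 3 most like Anxa2, Cald1 (0.975), Lpp (0.970) and Ahnak (0.970) were those most like Anxa3, Dsp (0.967) was second for S100a11, and Cyba (0.944) came first for Lgals1. For Lgals3 the highest value was 0.856, for Iqschfp and for Schip1, whose transcripts share a locus and may share reads.

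Position in the genome gave 1 pair of members that are neighbours. By gene order on GRCm38.p6, S100a10 and S100a11 lie next to each other on chromosome 3, and both were higher with shMed4. S100a6 lies on the same chromosome between S100a5, listed at 0 RPKM in both control_B and both shMed4 libraries, and S100a7a, which read at most 0.161 RPKM in the same libraries. Both genes beside Anxa3 were higher with shMed4 with no overlap. Bmp2k read 2.68 and 2.67 RPKM in control_B and 3.92 and 3.43 with shMed4, and Fras1 read 0.158 and 0.224 and then 0.291 and 0.309. The genes beside Anxa2 and Lgals1 did not rise with shMed4 as these members did. Ice2, next to Anxa2, read 5.00 and 4.52 RPKM in control_B and 4.53 and 4.61 with shMed4, and Foxb1, on the other side, read at most 0.0267 RPKM. Of the genes on either side of Lgals1, Nol12 read 11.1 and 12.2 and then 10 and 10.4, and Pdxp read 8.74 and 8.32 and then 6.88 and 6, both lower with shMed4 with no overlap.

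The modules of Mediator were compared with the knockdown as the unit and no control library. This contrast reuses the set B knockdown libraries whose values against control were known when the members were picked. It is therefore not independent of that choice. No member was called by limma between the kinase module (4 knockdowns) and the head and middle modules (7 each), between the upper tail (4) and head and middle, or between head and middle, and at an unadjusted p under 0.05 the number was also 0. Of all 12974 genes 0 were called in each contrast, with 358, 787 and 847 genes at an unadjusted p under 0.05. Members differed by -0.07 (S100a11) to 0.24 (Lgals1) log2 units between kinase and head and middle, and by 0.15 (S100a6) to 0.36 (S100a11) between upper tail and head and middle. The estimates of head minus middle ran from -0.60 ± 0.33 for Anxa3 (limma, adjusted p = 0.649) to -0.18 for Anxa5. The standard errors, 0.20 to 0.42 log2 units, come from the wide spread inside each module, since shMed4 and shMed9 are both middle subunits. A p that misses the threshold does not show that the modules act alike.

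**Figure D3:**
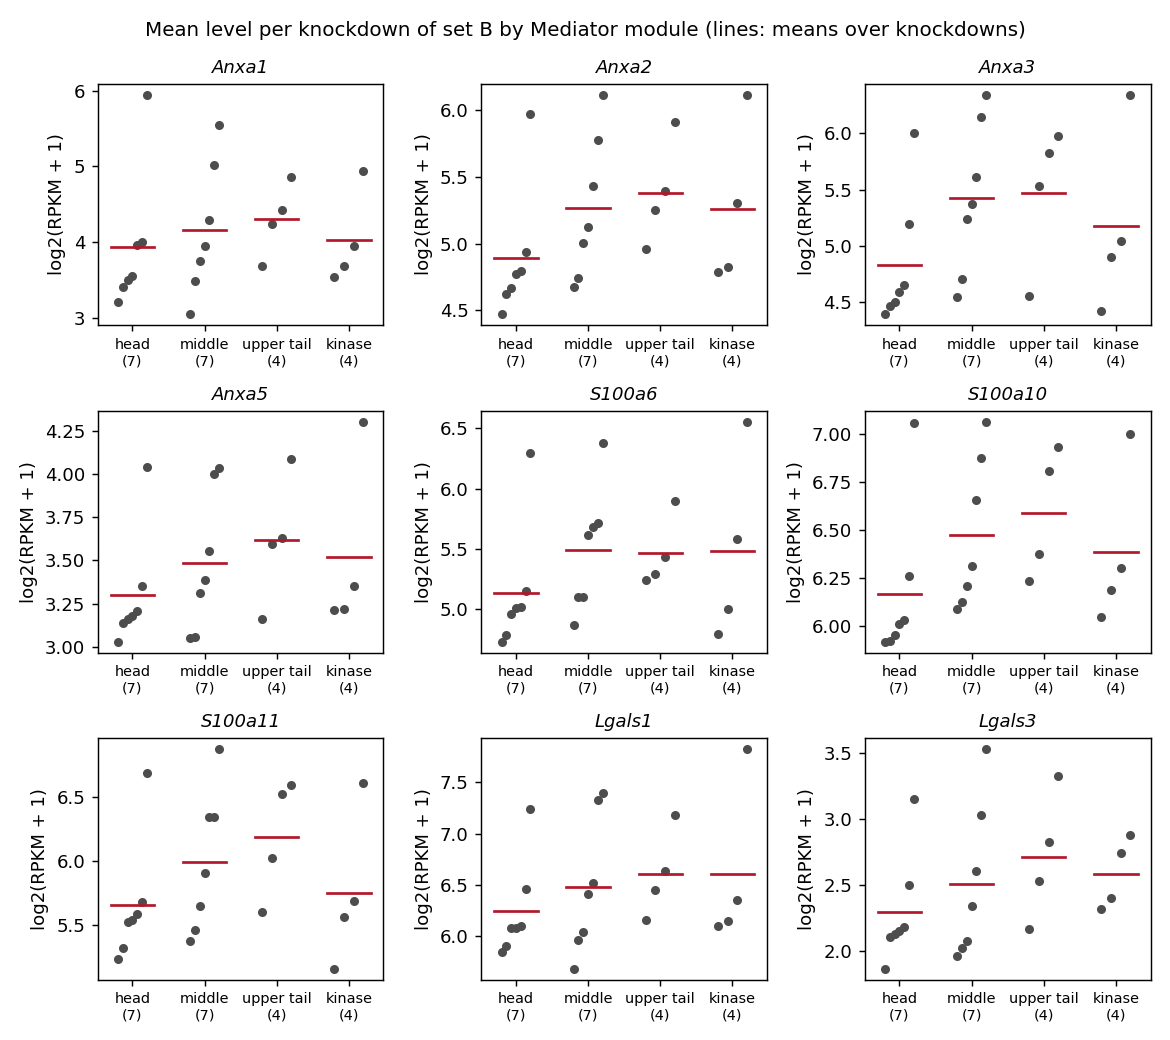
Mean log2(RPKM + 1) of each member for every set B knockdown of 4 Mediator modules (points) with the mean over knockdowns (line). The spread inside the head, middle and kinase modules is wider than the distance between the module means, and in most panels the highest kinase point, shMed12, stands apart from the other 3.

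In set A the members were compared between 15 TFIID and 5 lower tail knockdowns, again without a control library and using the replicate 2 libraries. The values of these libraries against control were also known when the members were picked, so this comparison is not independent of that choice either. Lgals1 was lower in the libraries labelled with TFIID subunits: these ran from 38.5 to 115 RPKM (median 75.5), and the tail libraries read 99.6, 99.6, 128, 142 and 167. Only 1 of 15 TFIID libraries lay above the lowest tail library. The log2 difference was -0.78 ± 0.18 (limma, adjusted p = 0.018), and Lgals1 was the only member called, while 4.22% of genes were called higher and 2.43% lower. Without the library labelled shMed24, the highest, the difference was -0.68 and the limma adjusted p 0.063. Over the alternatives tried the limma adjusted p ran from 2.92e-04 to that value. The lowest came with the mean of both libraries of each label, which takes in the replicate 1 libraries. In those Lgals1 read 84.9, 172, 125, 91.6 and 110 RPKM for the tail labels and 37.3 to 98.1 for TFIID. The difference thus also appeared where the labelled targets stood at a median of 102.5% of control. Anxa1 differed by -0.74 ± 0.23 (limma, adjusted p = 0.052), S100a6 by -0.62 ± 0.22 (0.090) and Anxa3 by -0.48 ± 0.20 (0.138), none of them called. Without the library labelled shTbp, which was high, 4 members were called lower in TFIID. Over the fits that each left out 1 knockdown, 306 to 1511 of 12974 genes were called in either direction, against 863 in the main fit. Anxa5 hardly differed, at -0.04 ± 0.20.

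**Figure D4:**
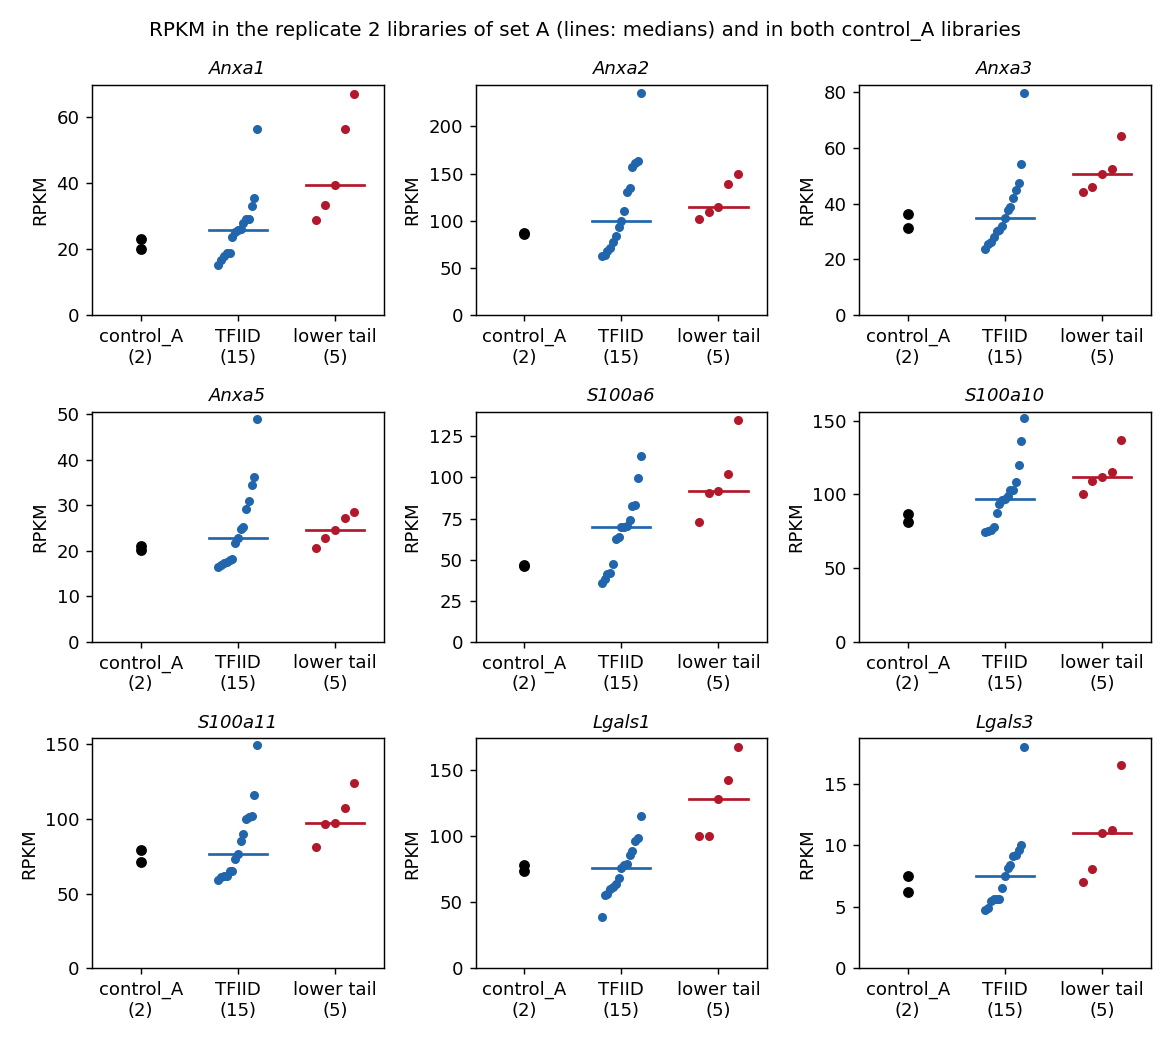
RPKM of each member in both control_A libraries (black), in the replicate 2 libraries labelled with 15 TFIID subunits (blue) and in those labelled with 5 lower tail subunits (red); lines are medians. Lgals1 shows the clearest step between the coloured groups, and the highest blue point of most panels is the library labelled shTbp.

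Against control_A the replicate 2 libraries are single libraries, so they are described without a test. A member lay at least 1 log2 unit above both controls in 13 of 180 values and below both by that much in 0, against 0.305% and 0.3% of all gene values. It lay above both controls by any amount in 122 values, 79 of 135 for TFIID and 43 of 45 for the tail, against 40.5% of all gene values. The library labelled shTbp, after the TATA-binding protein, held 6 of the 13 (1.19% of all genes did so in it), with Anxa2 at 235 RPKM against 86.4 and 86.5 in the controls, Anxa5 at 48.9 against 20.2 and 21.1, and Lgals3 at 18 against 7.50 and 6.21. Its target was among the less lowered, with Tbp at 50.9% of control, where the replicate 2 libraries held 15.9 to 59.0% (median 34.0%). The library labelled shMed24 held the highest Anxa1 (67.2 RPKM against 23.1 and 20.2), S100a6 (135 against 46.9 and 46.1) and Lgals1 (167 against 73.6 and 77.7). The library labelled shTaf12 had a median change of 0.69 log2 units and S100a6 at 113 RPKM. In 6 libraries the median of the members lay below control: -0.04 log2 units in the one labelled shTaf7, and -0.29 to -0.17 in those labelled shTaf3, shTaf4, shTaf4b, shTaf9 and shTaf11.

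Set C gave a sharp contrast between libraries that its labels do not describe. Med1 read 11 and 11.9 RPKM in control_C, 7.54 and 11.2 in the libraries labelled shMed1 (replicates 1 and 2) and 10.7 and 7.44 in those labelled shMed14. The least Med1 was thus in the library labelled shMed1 replicate 1 and the one labelled shMed14 replicate 2. Med14 read 7.14 and 7.74 in control_C, 6.94 and 4.98 in the libraries labelled shMed1 and 4.57 and 7.38 in those labelled shMed14, so the library labelled shMed1 replicate 2 and the one labelled shMed14 replicate 1 had the least Med14. Those 2 libraries lay above the other 4 for 7 of the 9 members, and for 32.9% of all genes tested. Anxa3 read 41.5 and 43.1 RPKM in them, against 9.33 in both controls and 9.91 and 9.12 in the other libraries, and Lgals1 read 115 and 111, against 39.6 and 46.0 in the controls. S100a10 read 110 and 104 against 51.3 and 54.1, and Anxa1 read 12.5 and 10.9 against 4.13 and 2.90. Anxa2 did not follow, at 65.7 and 61.6 RPKM against 68.2 and 61.6 in the controls, and neither did Lgals3, at 4.19 and 4.74 against 4.34 and 3.29. No test was made, because the libraries paired by Med1 and Med14 level across the labels, and the labels do not tell which share a hairpin.

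**Figure D5:**
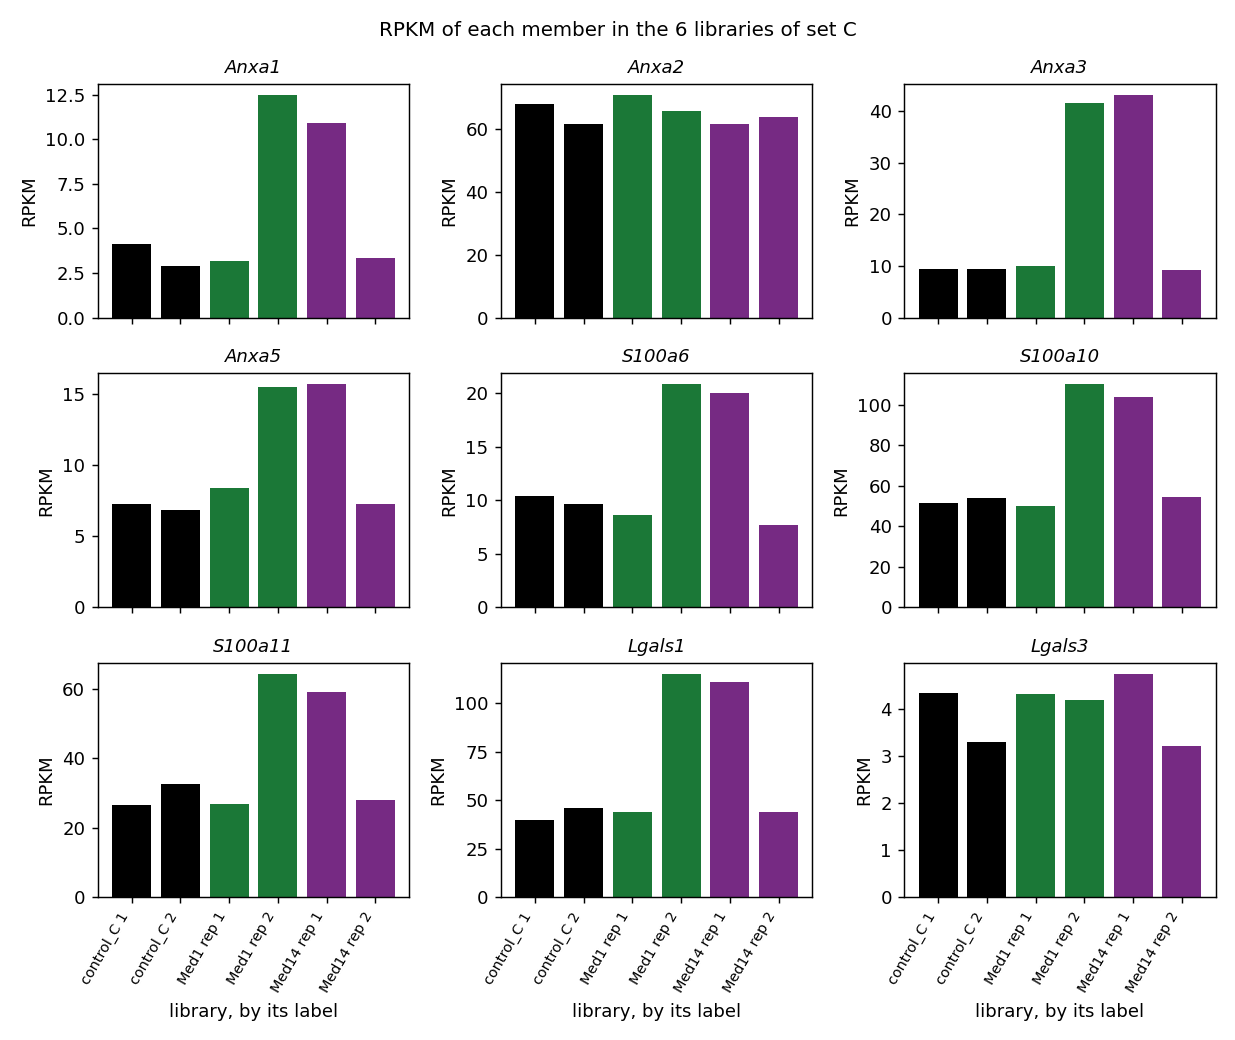
RPKM of each member in the 6 libraries of set C, by label; black bars are control_C, green those labelled Med1 and purple those labelled Med14. In 7 panels the bars for Med1 replicate 2 and Med14 replicate 1 stand above the other 4, while those of Anxa2 and Lgals3 show no such split.

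The rest of the 3 families was called higher in a minority of comparisons. Of the 32 other symbols, which include binding proteins such as S100pbp and Lgals3bp, 17 were tested and 12 stayed under 1 RPKM in every library. Over the 25 knockdowns of set B 17.9% of their comparisons were called higher and 5.65% lower, beside 15.7% and 15% of all gene comparisons; the difference was not tested. Anxa6, an annexin with a duplicated core, was called higher in 14 knockdowns and lower in 4, and read 15.6 and 15.9 RPKM in control_B and 32.7 and 31.4 with shMed4 (0.98 ± 0.05, limma adjusted p = 1.69e-16). No other of the 17 reached 13 knockdowns in 1 direction. Anxa11 was called higher in 6 and lower in 5, and S100a3 and S100a1, both at most 1.35 RPKM in control_B, were called higher in 10 and 9.

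Partners of the annexins and S100 proteins were often called higher, and galectin ligands were called higher more than lower. Of 26 genes on the list of membrane repair and partner genes 20 were tested. Of their comparisons 50.8% were called higher and 7.2% lower, beside 15.7% and 15% of all gene comparisons. The gene lists here and the marker lists below were chosen with earlier results of these data known. Their shares and calls are therefore given as a description, as for the members. Ahnak, the giant scaffold bound by S100a10 and Anxa2, was called higher in 22 knockdowns and read 12.1 and 14.1 RPKM in control_B and 47.2 and 49.9 with shMed4 (1.81 ± 0.09, limma adjusted p = 5.53e-18). Ehd1, a membrane-remodelling ATPase, was called higher in 21. Cacybp, the partner of S100a6, went down: it was called lower in 18 knockdowns and fell from 91.2 and 91.0 to 57.9 and 59.5 RPKM with shMed4 (-0.63 ± 0.03, limma adjusted p = 1.88e-16). Capns1, the small calpain subunit, was called higher in 11 and lower in 8. Of 14 galectin ligands and glycan partners 11 were tested, with 29.5% called higher and 6.55% lower, beside the same 15.7% and 15%. The tetraspanin Cd63 rose in 14 knockdowns, Bsg (basigin) in 13, the integrin Itgb1 in 11 and the lysosomal Lamp2 in 10, with the opposite call in 0, 1, 5 and 5.

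ES cell markers were mostly called lower and trophoblast and simple-epithelium markers mostly called higher, while primitive endoderm and macrophage markers went both ways. The part of these markers in the result was not tested, and their calls are a description, since the lists were chosen with earlier results known. All 10 ES cell markers were called lower with shMed4, and Klf4 was called lower in 24 knockdowns, Pou5f1 in 18, Esrrb in 17 and Nanog in 16, with the opposite call in 0, 0, 3 and 3. Pou5f1, which encodes Oct4, still read 237 and 230 RPKM with shMed4, against 436 and 413. The median change of the 10 markers was -1.04 log2 units with shMed4, -0.92 with shMed12 and -0.72 with shMed17, and -0.14 with shGcn5. Over the 25 knockdowns, which share control_B, that median and the member median had a Pearson's r of -0.88. The value for the percent of target left was -0.48. Of 9 trophoblast and simple-epithelium markers tested, 68% of comparisons were called higher and 5.33% lower, beside 15.7% and 15% of all gene comparisons. Krt18 was called higher in 24 knockdowns, Gata3 and Krt8 in 22 and Krt7 in 20. Of the other trophoblast factors tested, Tfap2c was called higher in 19 knockdowns and lower in 0. Tead4 was called higher in 16 and lower in 1, and Eomes higher in 10 and lower in 2. Cdx2 was called higher in 4 and lower in 9 (median change -0.23 log2 units). The summed level of all 10 markers on the list was 137 and 142 RPKM in control_B. It was 143 to 737 RPKM in the knockdown libraries, with Elf5 near 0. Primitive endoderm markers split: 25.1% of comparisons were called higher and 25.8% lower, both above the shares of all gene comparisons (15.7% and 15%). Col4a1 was called higher in 21 and Sparc in 17, but Cubn lower in 17 and Gata6 lower in 15. Of the macrophage markers only Cd68 was tested, and it was called higher in 4 and lower in 4.

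The feeder fibroblasts on which the line is kept express these families too. The 22 fibroblast markers summed to 93.6 and 95.6 RPKM in control_B, 392 and 396 with shMed4 and 97.0 to 564 over the knockdown libraries. Of the comparisons of the 13 tested, 32.3% were called higher and 10.8% lower, beside 15.7% and 15% of all gene comparisons. The contractile genes Tagln and Acta2 were called higher most often, in 24 and 22 knockdowns, at 266 and 267 RPKM and 53.0 and 50.1 RPKM with shMed4. Fn1 was called higher in 15 and Pdgfra lower in 13. The collagen genes Col6a2, Col5a2 and Col1a1 were low but called higher in 11, 9 and 7 knockdowns, Col1a1 by 1.83 log2 units with shMed12. Loxl1 went the other way, called lower in 10 and higher in 0, and Thy1 was called lower in 2 and higher in 0. Fbn1 was called higher in 10 and lower in 4, and Twist1 higher in 1 and lower in 1. Col1a2 was called higher in 3 and S100a4 in 1, both lower in 0. Of the genes that define fibroblasts, several were at or near 0 and others were low. In set B Dcn reached at most 0.222 RPKM, Lum 0.0511, Postn 0.0399, Fap 0.0337 and Col3a1 0.455. Fap was listed at 0 in 45 of 52 libraries, while Col1a1 reached 4.03 and Col1a2 1.67. The highest knockdown mean was with shMed12 for Col1a1 and Col3a1 (Col3a1 0.448, against 0.00748 and 0.0181 in control_B). It was with shMed10 for Dcn, Lum, Postn and Col1a2, and with shCdk8 for Fap. The part of feeder cells in the member values was not tested.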

How the data were processed

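Per the submitters' processing notes, the authors aligned reads with TopHat2 to mm9, and the deposited tables hold RPKM per RefSeq transcript in 1 file for each library. Not given in the sources used here are the aligner's version, the counting tool, its filters and its strand setting; the kit is stranded per the labels. The values, taken as log2(RPKM + 1), carry no depth, so depth was recovered from the step between low values. Without a spike-in, RPKM cannot show a change common to all genes, and fold changes of genes near 1 RPKM are understated.

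Of 34995 lines, 33565 were named from RefSeq, 189 from GENCODE and 1241 stayed unnamed, giving 24206 genes. The 12974 genes that reached 1 RPKM in 2 or more libraries were tested with limma-trend 3.58.1 in R 4.3.3, two-sided, with Benjamini-Hochberg adjustment within each contrast. Set B was fitted alone (1 coefficient per group, 26 residual degrees of freedom). Modules and TFIID against tail were fitted on knockdowns (18 each). Errors beside log2 values are standard errors. The fits were tested on simulated data. Named genes of a list are up to 4 called in the most set B knockdowns, with some further trophoblast and fibroblast markers. The members and lists were chosen with earlier results of these data known. Alternatives were the pseudocount (0.1), no filter, upper-quartile scaling, summed transcripts, no trend, larger fits, a replicate block and leaving out libraries or knockdowns. Python 3.11 drew the figures.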

Additional observations from a re-analysis of the deposited data

Results flagged for a closer look

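Lgals1 differed between the replicate 2 libraries labelled with TFIID subunits and those labelled with lower tail subunits, by -0.78 log2 units (limma, adjusted p = 0.018), a difference between groups tested directly. It was lower in TFIID in 14 of 15 libraries when each is set against the lowest tail library. In the replicate 1 libraries Lgals1 read 84.9 to 172 RPKM for tail labels and 37.3 to 98.1 for TFIID labels. The labelled targets stood at a median of 102.5% of control in those libraries. The values against control were known when the members were picked.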

How the results depend on the processing

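Against control_B, members called higher numbered 165 and changed by over 1.5 times in 2 alternatives, to 59 with all 100 libraries in the fit and to 92 with 80. Members called lower numbered 2, and 0 under each of these fits and without a filter on low values. Leaving out each library of set B in turn gave 156 to 167 called higher, 52 to 58 higher by at least 1 log2 unit and 0 to 2 lower. With the replicate number as a block, 173 members were called higher, and calls over all genes went from 99319 to 110597. Over 325 pairs of groups the replicate differences correlated at -0.02 to 0.21 (median 0.09), over 0.1 in 135; the numbers were not treated as pairs, because not every correlation passed 0.1, but the values lean to the positive side. Between TFIID and the tail 1 member was called lower, 2 under upper-quartile scaling and 5 with the mean of both libraries of each label. The number was 0 to 4 when each knockdown was left out (0 without shMed24, 4 without shTbp). Of all 12974 genes, 863 were called in either direction in the main fit and 306 to 1511 when each knockdown was left out. Against control_A 0 values were lower by the rule of description, and 1 under upper-quartile scaling. No result changed its direction among those called. The cause of these differences was not tested. Depth limits Lgals3 most, at 68 to 545 reads in a library.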
